A study of Homo sapiens with 6 samples.

Results

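Fatty acid oxidation, ketone body metabolism and the receptor PPAR alpha were followed in HepG2, a human liver tumour cell line, grown in a bioreactor or on plates. The module was defined by a list of 32 gene symbols for the mitochondrial and peroxisomal enzymes of beta oxidation, the ketone enzymes, PPARA and genes known as its targets. Of these, 30 were found by symbol among the 19846 genes of the count table, and all 30 passed the filter on low counts. ACADL and PDK4 were not analysed here. The members were 15 mitochondrial oxidation genes, 6 peroxisomal genes, 2 ketone enzymes, 2 regulators and 5 genes of fatty acid binding, activation and thioester cleavage or other function.

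The 3 3D samples were HepG2 cells from an interwoven hollow fiber bioreactor, in which medium circulated at 23.5 mL/min and was renewed at 2 mL/hour. Their medium was a mix of EMEM and DMEM in equal parts with 10% fetal bovine serum, penicillin-streptomycin and GlutaMAX, and it was gassed with air and CO2. The 3 2D samples were HepG2 cells from 6-well plates in EMEM, renewed every 2 days, with no supplements named in the labels, and all samples were at passage 7 to 9. Culture form and medium differed together, so their parts in any difference cannot be told apart. Nothing in the labels says that replicates were grown as separate cultures, so each p-value reflects only how far these libraries differ, which may be technical.

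In the liver, fatty acids are bound in the cytosol, activated to acyl-CoA esters and carried into mitochondria on carnitine, where each round of beta oxidation removes acetyl-CoA by 4 reactions: dehydrogenation, hydration, a second dehydrogenation and thiolysis. Very long and branched chains are first shortened in peroxisomes, whose oxidases pass electrons to oxygen. Surplus acetyl-CoA is turned into ketone bodies. PPAR alpha, a nuclear receptor activated by fatty acids, binds DNA with a retinoid X receptor at paired half-sites and is known for switching on these genes during fasting.

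Total estimated counts were 9530795 to 15897621 in the 3D libraries, against 16270361 to 17943513 in the 2D libraries. Levels are given in CPM, counts relative to library size after scaling of the libraries by the trimmed mean of M values (TMM), and n is 3 per group throughout. Apart from VNN1, every member had at least 68 counts in each 3D library and at least 150 in each 2D library. The liver markers ALB, AFP and HNF4A averaged 9849 ± 3472, 9409.5 ± 1787 and 325 ± 23.8 CPM in 3D, against 6237 ± 1322, 6840.3 ± 1181 and 354 ± 20.2 CPM in 2D (SD). Of the 10 liver markers on the list, APOA1 and TF were higher in 3D (log2 1.39 and 0.70), APOB and AHSG were lower (log2 −1.42 and −0.87), and 6 were not called, ALB, AFP and HNF4A among them. The call on TF was lost without 2D replicate 2 (edgeR adjusted p = 0.0817). Of endothelial, fibroblast, blood and muscle markers, 13 of 24 were in the table. Summed per list, the 4 endothelial markers were at 3.02 to 5.81 CPM in 3D against 2.22 to 4.91 CPM in 2D. The 3 fibroblast markers were at 25.5 to 42.8 CPM in 3D against 35.5 to 44.8 CPM in 2D, and all 3 were called, in different directions. COL1A1 averaged 13.8 ± 6.62 CPM in 3D, against 1.26 ± 0.739 CPM in 2D, and was 10.8-fold higher (edgeR adjusted p = 0.00159). PDGFRB and ACTA2 were lower (log2 −1.71 and −0.54), ACTA2 not without 2D replicate 1 (adjusted p = 0.0594). The 3 muscle markers were at 3.45 to 6.98 CPM in 3D against 5.32 to 9.82 CPM in 2D. The 3 blood and macrophage markers, whose sum is mostly LYZ, stood at 435.9 to 1015 CPM in 3D against 979.6 to 1476 CPM in 2D. CD68 among them averaged 32.00 ± 9.52 CPM in 3D, against 7.62 ± 1.77 CPM in 2D, and was 4.21-fold higher (edgeR adjusted p = 0.000191). Except for ALB, AFP and HNF4A, the single markers named here were picked with their values in view. The part of these markers in the members' differences was not tested.

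Of the 30 members, 12 were higher and 5 lower in 3D at an edgeR adjusted p under 0.05 (quasi-likelihood test, Benjamini-Hochberg over all 15314 genes tested), and 13 were not called. Together 17 of 30 were called, where 36.6% of all genes tested were. That is 40% of members higher against a background of 19.0% of all genes tested, and 16.7% lower against 17.6%. The share of lower members was thus near the background. The median log2 fold change, 3D over 2D, was 0.23 over the members and 0.02 over all genes tested. The 3D libraries lay wholly above the 2D libraries for 12 members, where 25.6% of all genes did so, and wholly below for 6, where 24.9% did, so that 18 of 30 did not overlap beside 50.5% of all genes. In whole RNA of a culture, less RNA per cell and fewer cells that make it cannot be told apart.

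**Figure D1:**
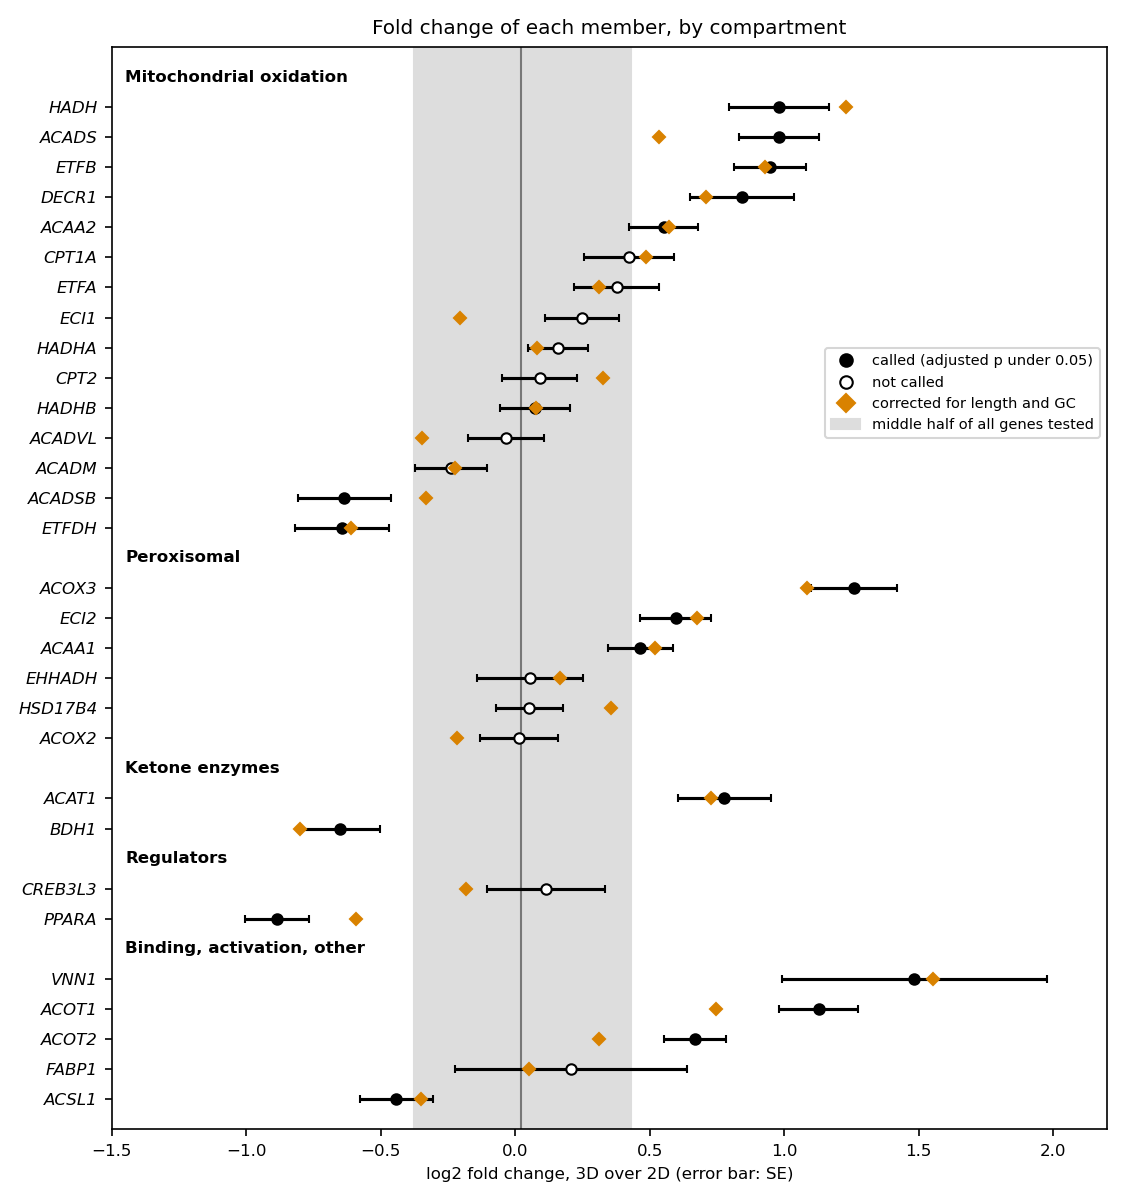
Log2 fold change (3D over 2D, x axis) of each of the 30 members, grouped by compartment, with black points for the fitted value, bars for its SE and orange diamonds for the value after correction for transcript length and GC content. Filled points passed the test, and the grey band runs from the lower to the upper quartile of all genes tested. Points run from VNN1 at 1.48 to PPARA at −0.89.

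Promoter sequences are shown for the 4 called members with the largest absolute change that had an entry in the RefSeq promoter table (GRCh38.p14) and could be printed, and for 2 further members. HADHA was added because its start site lies close to that of HADHB on the opposite strand, and CREB3L3 because it held a PPAR-type motif. These 2 were chosen after their values were seen. Each run is the 250 bases before the annotated start site, 5′ to 3′ on the gene's own strand, and capitals mark matches to the motifs described next.
ACOX3, chr4:8440724-8440973, minus strand: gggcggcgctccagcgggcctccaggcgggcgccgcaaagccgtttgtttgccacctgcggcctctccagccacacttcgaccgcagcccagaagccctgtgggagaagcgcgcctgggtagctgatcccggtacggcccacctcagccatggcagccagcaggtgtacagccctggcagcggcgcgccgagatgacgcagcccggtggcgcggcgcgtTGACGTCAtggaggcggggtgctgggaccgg
HADH, chr4:107989639-107989888, plus strand: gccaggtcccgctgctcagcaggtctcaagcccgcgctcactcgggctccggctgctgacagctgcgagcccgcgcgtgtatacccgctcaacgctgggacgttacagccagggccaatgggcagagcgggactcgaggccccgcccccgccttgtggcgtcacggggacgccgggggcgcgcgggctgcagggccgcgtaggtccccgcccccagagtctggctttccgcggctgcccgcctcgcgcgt
ACADS, chr12:120725576-120725825, plus strand: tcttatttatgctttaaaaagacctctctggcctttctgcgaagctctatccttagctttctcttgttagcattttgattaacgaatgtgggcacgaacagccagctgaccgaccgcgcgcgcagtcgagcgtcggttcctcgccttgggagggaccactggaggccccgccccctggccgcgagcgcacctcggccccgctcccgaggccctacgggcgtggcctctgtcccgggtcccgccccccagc
ETFB, chr19:51366389-51366638, minus strand: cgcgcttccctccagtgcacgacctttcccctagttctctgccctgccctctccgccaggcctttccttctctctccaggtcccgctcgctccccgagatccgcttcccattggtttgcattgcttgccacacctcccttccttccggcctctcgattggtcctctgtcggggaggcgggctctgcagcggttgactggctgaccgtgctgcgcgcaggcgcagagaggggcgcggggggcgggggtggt
HADHA, chr2:26244633-26244882, minus strand: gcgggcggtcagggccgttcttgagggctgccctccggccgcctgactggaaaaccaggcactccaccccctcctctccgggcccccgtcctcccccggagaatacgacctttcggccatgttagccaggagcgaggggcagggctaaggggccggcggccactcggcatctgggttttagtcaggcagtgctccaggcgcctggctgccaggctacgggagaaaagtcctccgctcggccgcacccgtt
CREB3L3, chr19:4153381-4153630, plus strand: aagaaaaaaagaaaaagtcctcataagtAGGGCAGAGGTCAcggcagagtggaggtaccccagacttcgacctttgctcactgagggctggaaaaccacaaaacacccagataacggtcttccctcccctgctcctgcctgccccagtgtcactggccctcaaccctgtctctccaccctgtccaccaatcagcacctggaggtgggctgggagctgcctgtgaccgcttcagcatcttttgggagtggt

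Of the members, 23 had an entry, with 36 windows in all because some genes have several start sites. Each window was searched on both strands for 2 copies of the half-site AGGTCA in the same direction, 1 base apart, the classical PPAR and RXR element, and for a looser form in which the base at position 4 of each copy was free. The strict form was in none of the 36 member windows and in 0.0171% of all 35116 windows. The looser form was in 1 member window, that of CREB3L3, and in 0.268% of all windows. The capitals in the CREB3L3 window mark that match, from 222 to 210 bases before the start, and it contains the single half-site AGGTCA. The half-site AGGTCA, counted wherever it occurred, was in 2 of the 36 member windows, those of CREB3L3 and FABP1, and in 12.1% of all windows. The palindrome TGACGTCA, the classical cyclic AMP response element, was in the windows of ACOX3 and in 1.65% of all windows, and capitals mark it 31 to 24 bases before the ACOX3 start printed here. A match is a description of letters and not a binding site. The windows printed for ACOX3, HADH, ACADS, ETFB and HADHA were 72.0%, 74.4%, 62.8%, 67.2% and 68.8% G and C, and that of CREB3L3 was 56.0%. That of CREB3L3 also held 4 CG dinucleotides, against 20 to 32 in the others.

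PPARA (chromosome 22, 46150521 to 46243757, hg38) stood at 46.3, 46.00 and 41.2 CPM in the 3D libraries, against 77.9, 86.8 and 82.1 CPM in the 2D libraries. The groups did not overlap, and each 3D library was below the lowest 2D library. Its log2 fold change was −0.89 (SE 0.12, edgeR adjusted p = 0.000288). The longest PPARA transcript, at 9995 bases, was the longest among the members, and the log2 fold change was −0.59 (adjusted p = 0.001) with transcript length and GC content corrected. CREB3L3 encodes CREB-H, a liver transcription factor held in the endoplasmic reticulum that acts with PPAR alpha in fasting in mice. Its levels were 26.1, 17.2 and 34.9 CPM in 3D, against 22.9, 25.8 and 23.5 CPM in 2D. The 3D libraries lay on both sides of the 2D libraries, and the gene was not called (log2 0.11, SE 0.22, adjusted p = 0.712).

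Binding and activation of fatty acids are the first steps. FABP1, the cytosolic fatty acid binding protein of liver, was at 99.9, 329 and 314 CPM in 3D, against 222, 157 and 265 CPM in 2D. The groups overlapped: 3D replicate 1 was the lowest of the 6 libraries and the other 3D libraries the highest. FABP1 was not called with all libraries (log2 0.21, SE 0.43, adjusted p = 0.739), and was called higher without 3D replicate 1 (log2 0.57, adjusted p = 0.0438). ACSL1, the main long-chain acyl-CoA synthetase of liver, was at 65.1, 67.97 and 74.3 CPM in 3D, against 84.3, 111 and 86.97 CPM in 2D. All 3D libraries lay below all 2D libraries, and ACSL1 fell (log2 −0.44, SE 0.13, adjusted p = 0.0237). Without 2D replicate 2, where it stood highest, its adjusted p was 0.115, and without 3D replicate 2 it was 0.0508.

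CPT1A, which loads long acyl chains onto carnitine at the outer mitochondrial membrane and sets the pace of the pathway, was at 47.01, 52.3 and 67.1 CPM in 3D, against 42.8, 47.8 and 33.6 CPM in 2D. The highest 2D library was above the lowest 3D library, and CPT1A was not called (log2 0.42, SE 0.17, adjusted p = 0.0682). Without 3D replicate 1 it was called higher (log2 0.51, adjusted p = 0.0349). CPT2, which takes the chain off carnitine on the inner membrane, was at 18.9, 22.8 and 21.2 CPM in 3D, against 19.3, 19.8 and 20.1 CPM in 2D. Its groups overlapped, with no call (log2 0.090, SE 0.14, adjusted p = 0.645).

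Of the 15 mitochondrial oxidation genes, 5 were higher in 3D (HADH, ACADS, ETFB, DECR1 and ACAA2), 2 were lower (ETFDH and ACADSB) and 8 were not called. Without 2D replicate 1, ETFDH was not called and 1 was lower. As shares of the compartment these are 33.3% and 13.3%, beside 19.0% and 17.6% of all genes. Their median log2 fold change was 0.25, from −0.65 for ETFDH to 0.98 for HADH. Among the most abundant of the 15 in CPM, ACADVL, HADHA and HADHB did not pass the test, while ETFB was higher and ACADSB lower.

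The acyl-CoA dehydrogenases catalyse the first reaction of each round and differ in the chains they take. ACADS, for short chains (chromosome 12, 120725735 to 120740009, hg38), was at 36.2, 29.01 and 38.3 CPM in 3D, against 16.5, 17.03 and 18.9 CPM in 2D. Every 3D library was above every 2D library, and ACADS rose 1.97-fold (log2 0.98, SE 0.15, adjusted p = 0.000607). With length and GC content corrected the log2 fold change was 0.53 (adjusted p = 0.00744). ACADM, for medium chains, was at 46.3, 61.7 and 59.8 CPM in 3D, against 62.5, 68.5 and 67.4 CPM in 2D. The 3D libraries lay just below the 2D libraries, and the gene did not pass the test (log2 −0.24, SE 0.13, adjusted p = 0.185). ACADVL, for very long chains, was at 169.9, 140.5 and 195 CPM in 3D, against 161, 192 and 164 CPM in 2D. Its groups overlapped (log2 −0.034, SE 0.14, adjusted p = 0.873), though with length and GC content corrected it was called lower (log2 −0.35, adjusted p = 0.0417). ACADSB, which acts on short branched chains from isoleucine breakdown, was at 146, 246 and 190.0 CPM in 3D, against 281, 319 and 304 CPM in 2D. Its 3D libraries were spread widely but all lay below the 2D libraries, and it fell (log2 −0.64, SE 0.17, adjusted p = 0.0139). The call was lost with length and GC content corrected (log2 −0.33, adjusted p = 0.0614).

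HADHA and HADHB encode the alpha and beta subunits of the mitochondrial trifunctional protein, which carries out the later reactions on long chains. HADHA was at 275, 287 and 289.9 CPM in 3D, against 259.9, 256 and 248 CPM in 2D, and did not pass the test (log2 0.16, SE 0.11, adjusted p = 0.292) although the groups did not overlap. HADHB was at 108, 145 and 133 CPM in 3D, against 126, 125 and 116 CPM in 2D, with overlapping groups (log2 0.074, SE 0.13, adjusted p = 0.689). The HADHA start site (26244632 on chromosome 2), just next to the window printed above, lies 307 bases from that of HADHB (26244939), on the opposite strand. Transcription from these start sites runs in opposite directions, away from each other. The spans of these genes in the count table overlap by 1558 bases. Whether strand was used in counting is not given in the sources used here, so reads from that overlap cannot be assigned with certainty. Another gene of the table overlapped the span of 19 of the 30 members, among them RABGGTB with ACADM on the same strand, and NBN with DECR1 and TRMT44 with ACOX3 on opposite strands.

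HADH and ACAA2 carry out the second dehydrogenation and the thiolysis on shorter chains. HADH (chromosome 4, 107989714 to 108035176) was at 45.3, 54.5 and 46.6 CPM in 3D, against 23.98, 18.4 and 31.8 CPM in 2D. The lowest 3D library exceeded the highest 2D library, and HADH rose 1.97-fold (log2 0.98, SE 0.19, adjusted p = 0.00216). ACAA2 was at 115, 116 and 109 CPM in 3D, against 81.6, 64.7 and 84.9 CPM in 2D. The 3D libraries were close to each other and above all 2D libraries, and ACAA2 rose 1.47-fold (log2 0.55, SE 0.13, adjusted p = 0.00657).

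Unsaturated chains need auxiliary enzymes that move or reduce double bonds. DECR1, the 2,4-dienoyl-CoA reductase, was at 19.04, 31.7 and 30.3 CPM in 3D, against 13.5, 16.1 and 15.7 CPM in 2D. All 3D libraries were higher, 3D replicate 1 the least so, and DECR1 rose 1.80-fold (log2 0.84, SE 0.19, adjusted p = 0.00591). ECI1, an enoyl-CoA isomerase, was at 66.4, 63.9 and 77.6 CPM in 3D, against 68.1, 54.8 and 52.3 CPM in 2D. One 2D library lay within the 3D range and no call was made (log2 0.25, SE 0.14, adjusted p = 0.185).

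**Figure D2:**
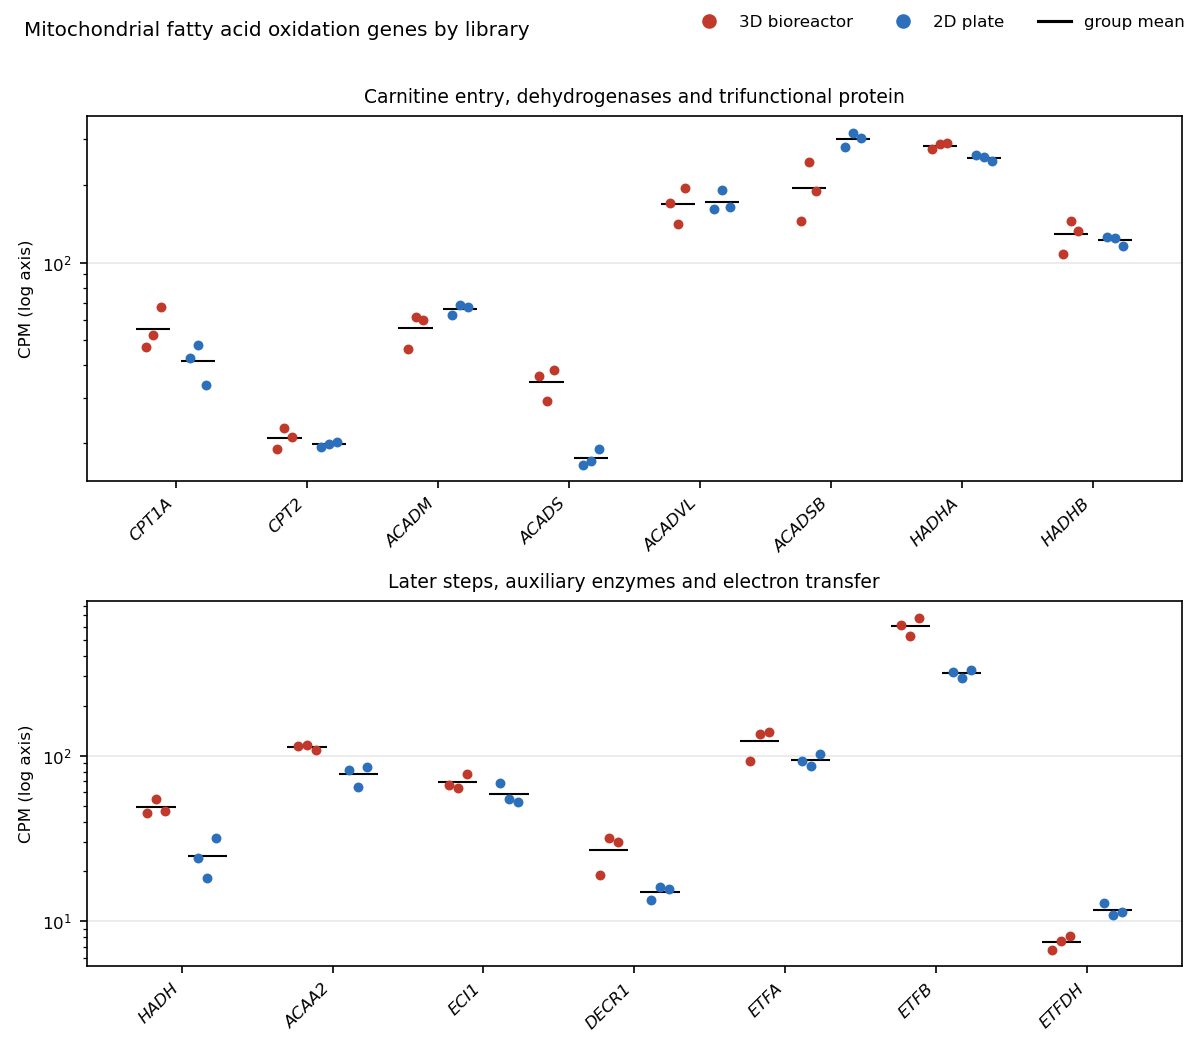
Level of the 15 mitochondrial oxidation genes in each library (CPM on a log axis), with red points for the 3D bioreactor libraries, blue points for the 2D plate libraries and black lines for group means. ETFB averaged 606 CPM in 3D and 314 CPM in 2D, while ETFDH, the lowest, averaged 7.51 and 11.8 CPM.

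Electrons from the acyl-CoA dehydrogenases leave through electron transfer flavoprotein, a dimer of the products of ETFA and ETFB, and then through its dehydrogenase ETFDH, which hands them to ubiquinone. ETFB (chromosome 19, 51345169 to 51366419, hg38) was at 610.4, 529 and 679.7 CPM in 3D, against 319, 294 and 330.0 CPM in 2D. The 3D libraries were far above the 2D libraries, a 1.93-fold rise (log2 0.95, SE 0.13, adjusted p = 0.000405), and the corrected log2 fold change was 0.93. ETFA was at 92.2, 134 and 139 CPM in 3D, against 92.2, 86.9 and 103 CPM in 2D. 3D replicate 1 stood level with the 2D libraries and the gene was not called (log2 0.38, SE 0.16, adjusted p = 0.0801), but it was called higher without 3D replicate 1 (log2 0.53, adjusted p = 0.00444). ETFDH went the other way, at 6.74, 7.62 and 8.16 CPM in 3D, against 12.96, 10.97 and 11.4 CPM in 2D. Its groups did not overlap and it fell (log2 −0.65, SE 0.18, adjusted p = 0.014), a call that was lost without 2D replicate 1 (adjusted p = 0.0705). ETFDH also shares 491 bases at its end with PPID and 132 at its start with C4orf46, both on the opposite strand.

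Ratios of counts between partner genes within a library do not depend on the scaling of libraries, though they can depend on transcript length. The ETFB to ETFA ratio was 6.62, 3.94 and 4.89 in 3D, against 3.46, 3.38 and 3.21 in 2D. The ETFB to ETFDH ratio was 90.5, 69.4 and 83.3 in 3D, against 24.6, 26.8 and 28.9 in 2D. In both cases every 3D library exceeded every 2D library. The ratio of the short-chain to the medium-chain dehydrogenase, ACADS to ACADM, was 0.782, 0.470 and 0.640 in 3D, against 0.263, 0.249 and 0.280 in 2D, again with no overlap. From the fitted values the log2 difference of that ratio was 1.22, against 0.76 after correction for length and GC content. The HADHA to HADHB ratio was 2.54, 1.98 and 2.18 in 3D, against 2.06, 2.05 and 2.13 in 2D, and overlapped. A two-sided exact permutation test on the log ratios gave p = 0.6 for HADHA to HADHB and 0.1 for each of the other 6 ratios compared here and in the following paragraphs. With 3 against 3 libraries 0.1 is the smallest p this test can give, and adjusted over the 7 ratios it was 0.117. The pairs were chosen after the values were seen.

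**Figure D3:**
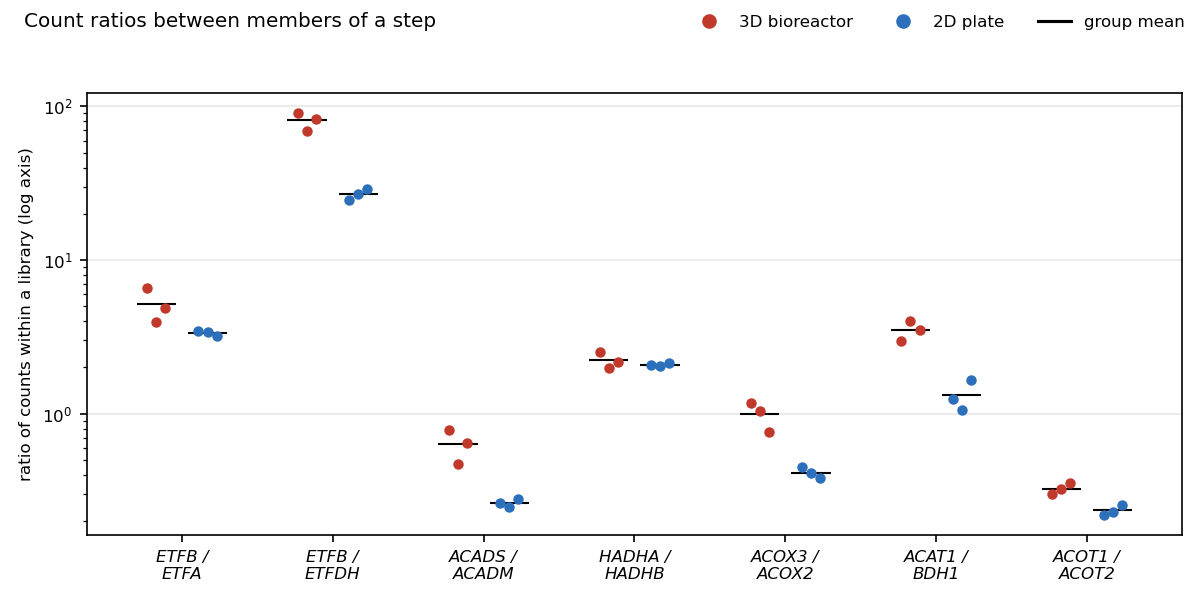
Ratio of the counts of a pair of members within each library (log axis), with red points for 3D libraries, blue points for 2D libraries and black lines for group means. HADHA to HADHB overlaps between the cultures, and the 6 other ratios are higher in all 3D libraries.

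In peroxisomes 3 of 6 enzymes were higher in 3D, 0 were lower and 3 were not called, where 19.0% of all genes tested were higher and 17.6% lower. With so few genes the count of lower ones is close to that background. The count of higher ones rests on the same few genes and was 2 without 2D replicate 1. The compartment's median log2 fold change, 0.26, became 0.44 after correction for length and GC content. The 3 not called had unadjusted edgeR p-values from 0.679 to 0.928, and DESeq2 also called 0 of the 6 lower. ACOX3 (chromosome 4, 8366282 to 8440724, hg38), an oxidase for branched chains such as pristanic acid, was at 26.3, 21.9 and 20.1 CPM in 3D, against 9.77, 9.09 and 9.60 CPM in 2D. The 2D libraries were nearly equal and each 3D library was far above them, a 2.39-fold rise (log2 1.26, SE 0.16, adjusted p = 0.000242). This was the largest change among the peroxisomal members. ACOX2, the oxidase for branched chains and bile acid precursors, was at 22.4, 21.00 and 26.3 CPM in 3D, against 21.7, 22.2 and 25.1 CPM in 2D, and the groups overlapped (log2 0.013, SE 0.15, adjusted p = 0.955). The ACOX3 to ACOX2 ratio was 1.17, 1.04 and 0.765 in 3D, against 0.450, 0.409 and 0.383 in 2D.

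EHHADH and HSD17B4 encode the bifunctional enzymes that hydrate and dehydrogenate the chain. EHHADH was at 33.9, 56.9 and 42.04 CPM in 3D, against 37.6, 38.2 and 52.5 CPM in 2D (log2 0.054, SE 0.20, adjusted p = 0.853). HSD17B4 was at 91.5, 118 and 107 CPM in 3D, against 97.4, 103 and 105 CPM in 2D (log2 0.053, SE 0.12, adjusted p = 0.768). Neither separated the cultures, although HSD17B4 was called higher with length and GC content corrected (log2 0.35, adjusted p = 0.011). ACAA1, the peroxisomal thiolase, was at 105, 98.7 and 121 CPM in 3D, against 75.1, 80.99 and 79.1 CPM in 2D. Its 3D libraries were all higher, a 1.38-fold rise (log2 0.46, SE 0.12, adjusted p = 0.0109) that was not called without 2D replicate 1 (adjusted p = 0.0662). ECI2, an enoyl-CoA isomerase found in peroxisomes and mitochondria, was at 82.3, 108 and 104 CPM in 3D, against 61.5, 64.7 and 68.7 CPM in 2D. No 3D library overlapped the 2D range, and ECI2 rose 1.51-fold (log2 0.60, SE 0.13, adjusted p = 0.00482).

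**Figure D4:**
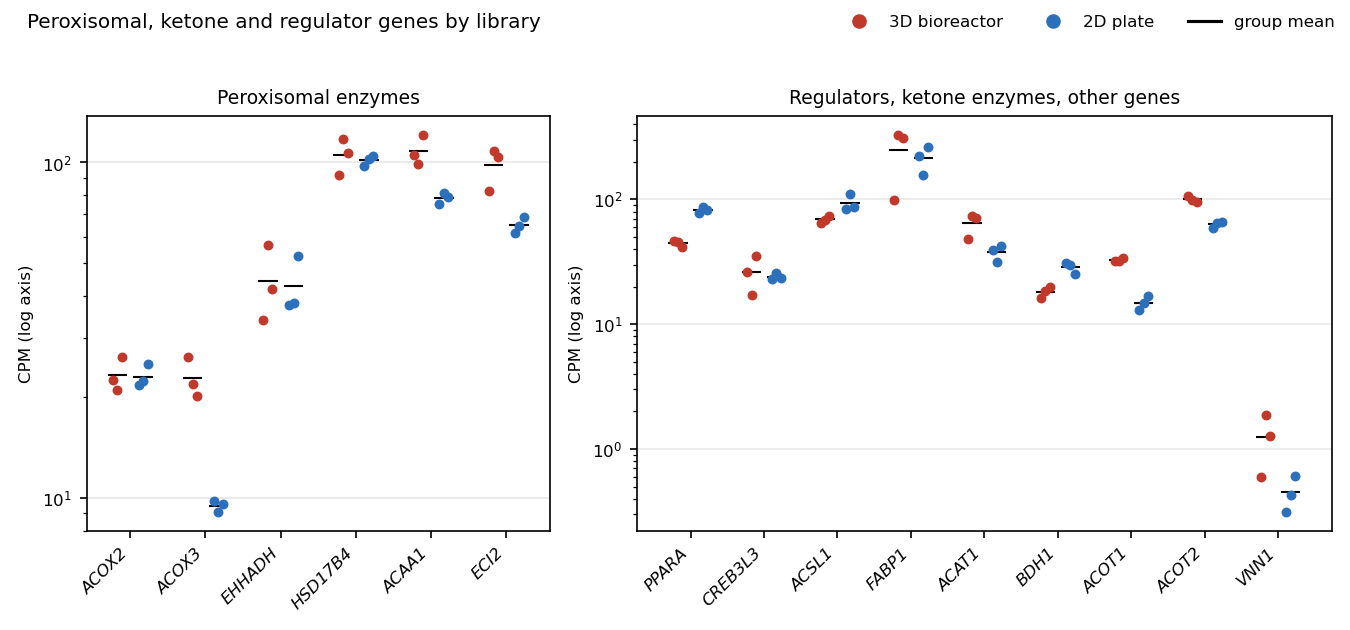
Level of the 6 peroxisomal genes (left) and of the 9 regulators, ketone enzymes and other members (right) in each library (CPM on log axes), with red points for 3D, blue points for 2D and black lines for group means. ACOX3, ACAA1 and ECI2 are higher in every 3D library, while PPARA, ACSL1 and BDH1 are lower in every one.

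The ketone enzymes moved in opposite directions. ACAT1, the mitochondrial acetoacetyl-CoA thiolase, was at 48.5, 73.8 and 70.4 CPM in 3D, against 39.00, 31.4 and 42.3 CPM in 2D, and rose 1.71-fold (log2 0.78, SE 0.17, adjusted p = 0.00533). BDH1, which interconverts acetoacetate and 3-hydroxybutyrate, was at 16.4, 18.4 and 19.97 CPM in 3D, against 31.2, 29.6 and 25.4 CPM in 2D, and fell (log2 −0.65, SE 0.15, adjusted p = 0.00558). Neither gene overlapped between the cultures. The ACAT1 to BDH1 ratio was 2.96, 4.01 and 3.53 in 3D, against 1.25, 1.06 and 1.67 in 2D.

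ACOT1 and ACOT2 split acyl-CoA back into fatty acid and coenzyme A, in the cytosol and in mitochondria. ACOT1 (chromosome 14, 73537114 to 73543795, hg38) was at 31.8, 31.9 and 33.7 CPM in 3D, against 12.9, 14.8 and 16.9 CPM in 2D, a 2.18-fold rise (log2 1.13, SE 0.15, adjusted p = 0.000257). ACOT2 (chromosome 14, 73567620 to 73575659) was at 106, 99.2 and 95.97 CPM in 3D, against 58.8, 64.6 and 65.9 CPM in 2D, a 1.59-fold rise (log2 0.67, SE 0.11, adjusted p = 0.00115). In each gene the 3D libraries were tightly grouped and above the 2D libraries. With length and GC content corrected the log2 fold changes were 0.75 and 0.31. They are neighbouring, near-identical genes and their deposited counts carry fractions, so how reads were split between them is uncertain. The ACOT1 to ACOT2 ratio was 0.301, 0.321 and 0.352 in 3D, against 0.219, 0.229 and 0.256 in 2D.

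VNN1, a pantetheinase on the cell surface and a PPAR alpha target in mouse liver, had 6, 29 and 18 counts in the 3D libraries, against 5, 7 and 11 counts in the 2D libraries. In CPM these were 0.595, 1.87 and 1.27 in 3D, against 0.313, 0.424 and 0.611 in 2D, and the lowest 3D library lay just below the highest 2D library. VNN1 had the largest fold change of the members (log2 1.48, SE 0.49, adjusted p = 0.0344) and the lowest level. The call was lost with DESeq2 (adjusted p = 0.0735) and without any single library except 3D replicate 1, with adjusted p-values up to 0.165.

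Per kilobase of the longest annotated transcript, ETFB was the most abundant member in 3D at 171 CPM per kb, against 88.5 CPM per kb in 2D, where it came after FABP1. FABP1 was at 119 CPM per kb in 3D and 103 in 2D. HADHA followed at 91.9 in 3D and 82.5 in 2D, and ACADVL at 71.6 and 73.3 CPM per kb. ACADSB ranked 10 of 30 in 3D at 33.1 CPM per kb, and 5 of 30 in 2D at 51.4 CPM per kb. PPARA ranked 28 of 30 in 3D at 4.45 CPM per kb, and 23 of 30 in 2D at 8.23. VNN1 was the lowest in both cultures, at 0.401 in 3D and 0.145 CPM per kb in 2D, and the next lowest was ETFDH in 3D at 2.29 and ACOX3 in 2D at 3.32 CPM per kb. Over the 3D libraries FABP1 ran from 47.9 to 158 CPM per kb, a range that takes in all 3 values of HADHA and reaches the lowest of ETFB at 149. Where a cell uses a shorter transcript than the longest, its level per kb is understated, and the length correction takes too great a length for it.

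Transcript length and single libraries moved with these values. Over all genes, fold changes fell with transcript length, with a median log2 value of 0.39 for the 10% of genes with the shortest transcripts and −0.40 for the 10% with the longest. Of the 18 members with transcripts of up to 3438 bases 8 were higher and 1 lower, beside 27.9% and 8.32% of all genes of those lengths. Of the 12 with longer transcripts 4 were higher and 4 lower, beside 11.8% and 28.8%. With length and GC content corrected together, 19 members were called, 16 of them shared with the uncorrected fit. ACADSB was lost, and ACADVL, CPT2 and HSD17B4 were gained. 3D replicate 1 had the fewest counts, and it was the lowest 3D library for 19 of 30 members (63.3%), beside 38.2% of all genes. Without it 20 members were called, the 17 named above plus CPT1A, ETFA and FABP1, all of these higher. In the plate group, 2D replicate 1 was the lowest 2D library for 17 of 30 members (56.7%), beside 32.1% of all genes. Without 2D replicate 1, 14 members were called, and ETFDH, ACAA1 and VNN1 were lost. The part of length or of these libraries in the members' differences was not tested further.

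The rest of the pathway was examined through 4 lists of genes that are not members. Of 29 tested genes of mitochondrial oxidation and ketone metabolism, 10 were higher and 3 lower (19.0% and 17.6% of all genes tested were), with a median log2 fold change of 0.18. ECHS1, the hydratase for short chains, was at 132, 125 and 138 CPM in 3D, against 59.1, 60.4 and 65.05 CPM in 2D, a 2.14-fold rise (log2 1.10, SE 0.11, adjusted p = 7.72e-05) with no overlap. BDH2, a cytosolic dehydrogenase, averaged 16.8 ± 2.05 CPM in 3D, against 6.67 ± 0.632 CPM in 2D (SD), and rose 2.51-fold. MLYCD, which removes malonyl-CoA, the inhibitor of CPT1A, averaged 12.7 ± 1.26 CPM in 3D and 18.4 ± 0.868 CPM in 2D (SD) and fell (log2 −0.53), and NADK2, the mitochondrial NAD kinase, fell too (log2 −0.46). With length and GC content corrected neither was called (adjusted p = 0.166 and 0.0544).

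Among 21 tested genes listed with other peroxisomal oxidation steps, 7 were higher and 3 lower (median log2 fold change 0.27). Of all genes tested, 19.0% were higher and 17.6% lower. The list was broad. The 3 lower genes, ACSL3, ABCD4 and LONP2, are not enzymes of these steps, and neither are CAT, CRAT and TYSND1 among the higher ones. CAT, which destroys the hydrogen peroxide made by the oxidases, was at 45.2, 83.7 and 69.6 CPM in 3D, against 40.4, 37.2 and 43.7 CPM in 2D, and rose (log2 0.71, SE 0.20, adjusted p = 0.0161). Leaving out 3D replicate 2 or 3, or 2D replicate 1 or 2, ended the call on CAT, with adjusted p-values of 0.0526 to 0.0637. CRAT, the carnitine acetyltransferase, rose 1.68-fold, and TYSND1, a protease that processes peroxisomal enzymes, rose 1.78-fold. ACSL3, an acyl-CoA synthetase, averaged 217 ± 54.00 CPM in 3D and 477 ± 96.9 CPM in 2D and fell (log2 −1.14). ACSL3 was also on the list of PPAR alpha partners and targets. ABCD4, of the same transporter family as the peroxisomal fatty acid carriers, fell (log2 −0.43), and LONP2, a peroxisomal protease, was called lower at log2 −0.32 but not with length and GC content corrected (adjusted p = 0.972). Of 15 tested genes that build peroxisomes, 2 were higher and 4 lower (median log2 fold change 0.16), beside the same 19.0% and 17.6%. With so few genes, neither count is far from those shares. PEX10 rose 1.55-fold and PEX3 1.47-fold, while PEX6 and PEX26 fell (log2 −0.79 and −0.37). PEX10 belongs to the ubiquitin ligase that recycles the import receptor, and PEX6 and PEX26 to the complex that pulls the receptor out. PEX26 turned to log2 0.032 with length and GC content corrected. Calls on PEX3 and PEX26 were lost without several single libraries, with adjusted p-values up to 0.124 and 0.153. Without 2D replicate 1, ABCD4 was not called either (adjusted p = 0.061).

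Partners and other targets of PPAR alpha went both ways, with 11 of 34 tested genes higher and 12 lower (median log2 fold change −0.14), beside 19.0% and 17.6% of all genes. Set apart after their values were seen, the 15 receptors and coregulators among them had 9 lower and 6 not called, and the 19 target genes 11 higher and 3 lower. The medians were −0.70 for the receptors and coregulators and 0.72 for the target genes. The coactivators and acetyltransferases CREBBP, EP300, MED1, NCOA1 and NCOA2 fell (log2 −0.85, −0.93, −1.04, −0.82 and −0.71), as did the deacetylase SIRT1 (log2 −1.11), LPIN1 (log2 −0.70) and the corepressor NCOR1 (log2 −0.40). Many of these transcripts are long, and of all genes with transcripts of 3439 bases or more, 28.8% were lower. After correction for length and GC content NCOR1 was not called (log2 −0.037, adjusted p = 0.798), RXRB was called lower, and the other 8 were still called lower. Without 2D replicate 1 NCOR1 and LPIN1 were not called (adjusted p = 0.0575 and 0.0544). PPARGC1A, the coactivator of oxidation genes, was at 12.2, 16.9 and 16.2 CPM in 3D, against 86.6, 80.1 and 61.4 CPM in 2D (log2 −2.32, SE 0.17, adjusted p = 1.89e-05). Both the receptor and this coactivator fell, with no overlap between cultures. The receptor's DNA-binding partner RXRA averaged 116 ± 14.98 CPM in 3D, against 100.4 ± 3.92 CPM in 2D (adjusted p = 0.214), and the related receptors PPARD and PPARG had adjusted p-values of 0.785 and 0.576. These 3 were chosen after their values were seen. ANGPTL4, a secreted lipase inhibitor, was at 20.1, 20.03 and 10.4 CPM in 3D, against 2.50, 2.73 and 1.83 CPM in 2D (log2 2.84, SE 0.29, adjusted p = 7.72e-05). PLIN5, which tethers lipid droplets to mitochondria, was at 2.08, 1.49 and 1.48 CPM in 3D, against 12.5, 15.2 and 9.44 CPM in 2D (log2 −2.89, SE 0.26, adjusted p = 4.57e-05). UCP2, an inner membrane carrier, rose 3.78-fold and FADS2, a desaturase, 3.74-fold. The acyl-CoA synthetase ACSL5 fell (log2 −1.14), as ACSL1 and ACSL3 did. ACSL4, on the same list, was not called (log2 −0.41, edgeR adjusted p = 0.207), and its groups overlapped.

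**Figure D5:**
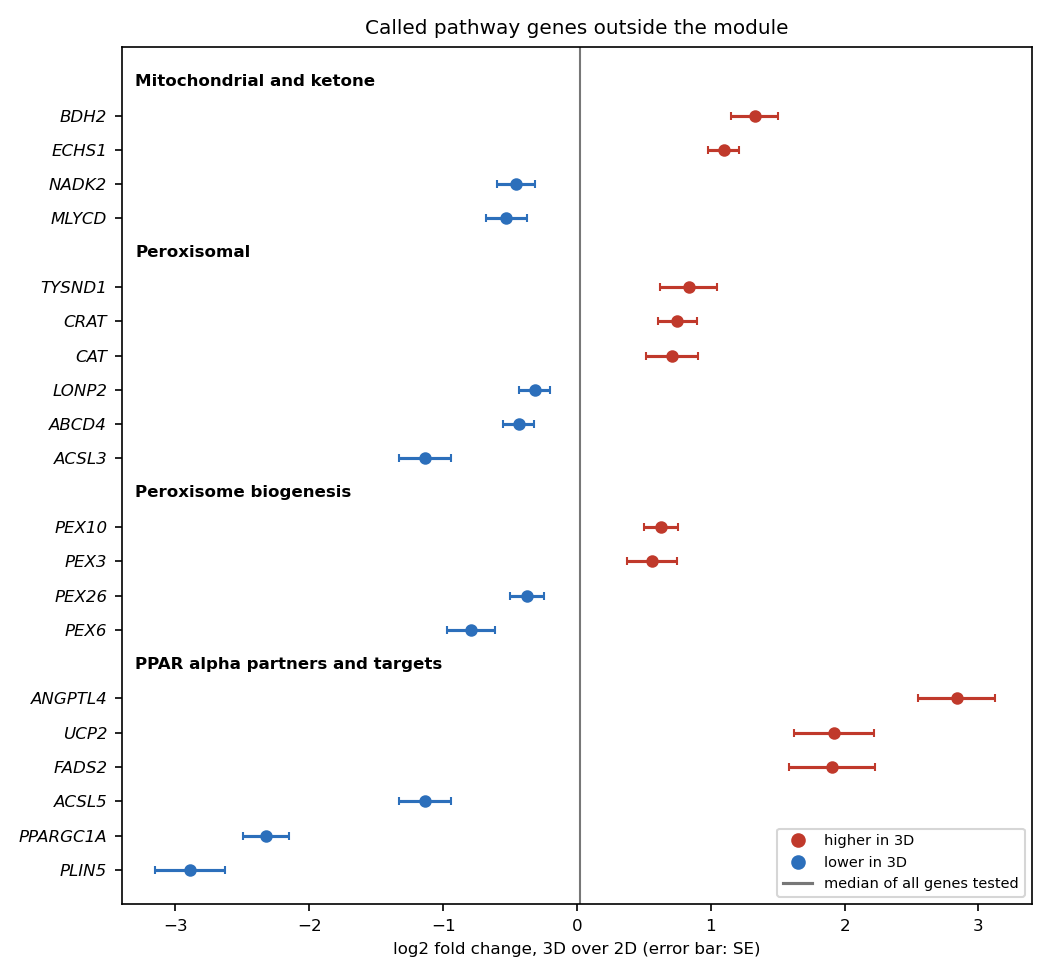
Log2 fold change (3D over 2D, x axis; bars are SE) of called non-member genes from 4 lists, red for higher and blue for lower in 3D, with a grey line at the median of all genes tested. Values run from ANGPTL4 at 2.84 to PLIN5 at −2.89.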

How the data were processed

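RNA of 6 HepG2 samples (3 3D, 3 2D, grouped by title) was analysed from 1 deposited table of estimated counts per gene with no scaling. The genome build hg38, STAR 2.4.1d and Partek are named, per the submitters' processing notes. Counting settings, annotation release and strand handling were not given in the sources used here. Of the values the authors deposited, 61.7% were whole, and all were rounded before testing. No gene in the table had a total under 10 over the samples.

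Differential expression was tested with edgeR 4.0.16 in R 4.3.3 (filterByExpr, TMM, robust quasi-likelihood fit, culture as the only term), adjusted over 15314 genes. Scripts were tested on simulated counts. SEs were derived from F statistics. Transcript length and GC content are of the longest GENCODE release 29 transcript, matched by symbol and position for 16132 genes, and correction used a loess fit (span 0.5) per library as offset. Alternatives were DESeq2 1.42.0, RLE and upper-quartile scaling, other filters, the replicate block, this correction and leaving out each library. Members and lists were chosen with earlier results of these data known. The rule for named genes took every member and, per list of other pathway genes, up to 3 called genes per direction with at least 5 CPM and no overlap. Some genes that the rule takes are not reported here. A count of 3 corresponds to 0.167 to 0.298 CPM. No replicates agreed within sampling noise (chi-square per degree of freedom 11.3 to 29.7).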

Additional observations from a re-analysis of the deposited data

How the results depend on the processing

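Of the members, the 12 higher and 5 lower calls were the same 17 genes with RLE or upper-quartile scaling, with no filter and with the replicate block, and 16 of them with DESeq2 or a filter of 1 CPM in 3 samples, both without VNN1. With length and GC content corrected in the replicate block, 3 members and 1 mitochondrial member were lower. Leaving out single libraries gave 10 to 15 members higher and 4 to 5 lower, 1 to 2 mitochondrial members lower, 17 to 27 other pathway genes higher (28 with all libraries) and 13 to 20 lower (21). Over all genes it gave 1938 to 2817 higher (2910 with all libraries) and 1828 to 2792 lower (2697), the fewest in each without 2D replicate 1.

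The replicate numbers gave no sign of pairing: same-numbered deviations correlated at 0.05, −0.01 and −0.08, and 2 of 6 libraries correlated best with their own number. With so few libraries this check cannot exclude that samples were paired. With the replicate block 2747 genes were higher and 2611 lower, and 12 members higher and 5 lower.

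Genes not called with all libraries changed sign in some runs. With length and GC content corrected, log2 values were −0.18 for CREB3L3, −0.21 for ECI1 and −0.22 for ACOX2, and with the replicate block added −0.22, −0.20 and −0.22. FABP1 was then at −0.069. ACOX2 was at −0.0083 with no filter. The called gene PEX26 was at 0.032 with the correction and 0.030 with the block added. Without single libraries the log2 range was −0.17 to 0.34 for CREB3L3, −0.053 to 0.57 for FABP1, −0.16 to 0.078 for ACADVL, −0.024 to 0.17 for HADHB, −0.092 to 0.080 for ACOX2, −0.17 to 0.22 for EHHADH and −0.037 to 0.13 for HSD17B4. The cause was not tested. Depth limits VNN1, whose counts were 29 or fewer in each library.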
